A study of Homo sapiens with 6 samples.

Results

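Neutrophil-attracting chemokine genes were examined in BxPC-3, an established human pancreatic cancer cell line of epithelial origin. They comprised 7 genes, CXCL1, CXCL2, CXCL3, CXCL5, CXCL6, CXCL8 and CCL20, out of 26255 gene symbols in each library. These genes were chosen from values measured in these same libraries, in which CXCL1 and CXCL8 were already known to lie among the largest increases with miR-4711-5p. Their levels and differences are therefore given as a description, and no p-value is given for any of the 7. All 7 symbols were found, 6 averaged 1 FPKM or more across the libraries, and CXCL6 was listed at 0 in every library. FPKM counts sequenced fragments relative to gene length and to library size, so that levels of different genes can be set side by side.

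Chemokines are small secreted proteins that make a gradient along which leukocytes migrate. CXCL1, CXCL2, CXCL3, CXCL5, CXCL6 and CXCL8 act on neutrophils through the receptors CXCR1 and CXCR2, with CXCL6 and CXCL8 being strong ligands of both receptors and the others acting mainly through CXCR2. CCL20 acts through CCR6 on dendritic cells and lymphocytes of the type 17 response, and epithelial cells are known to release it together with the CXC members after exposure to IL-1, TNF or IL-17. Transcription of these genes is known to depend on NF-kappaB, and their mRNAs are known to be short-lived because of AU-rich elements in the 3′ UTR. In pancreatic cancer, tumour cells are a known source of several of them.

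RNA was sequenced from 3 groups of 2 libraries each. Parent cells received no treatment, NC cells received a negative control RNA, and miR-4711-5p cells received the miR-4711-5p duplex, which is introduced by transfection. RNA was taken 36 h after transfection. NC is labelled NC-1, and of the pair of control RNAs that the methods list, which one was used for these libraries is not given. Parent cells therefore differ from both other groups in the transfection itself, and miR-4711-5p differs from NC in the RNA transfected. All libraries are of a single cell line, and nothing states that the 2 libraries of a group came from separate cultures, so each p-value measures the spread between these libraries, which may be technical. In bulk RNA, fewer cells expressing a gene and less RNA per cell cannot be told apart.

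Total FPKM ranged from 493145 to 550772 per library, with 16597 to 17305 genes above 0. The number of reads is not known from FPKM, but the relative depth was lowest in NC replicate 1 at 0.751 and highest in miR-4711-5p replicate 2 at 1.21, with parent replicate 1 set to 1. KLF5, a transcription factor that miR-4711-5p is meant to lower, was at 114 and 124 FPKM in parent, at 115 and 120 in NC, and at 66.8 and 59.2 after miR-4711-5p. All 8 epithelial markers were above 1 FPKM, and SMAD4, which BxPC-3 is known to have lost, was at 0 in all 6 libraries. The summed level of these 8 markers was 7648.5 to 8177 FPKM in parent, 7348 to 7903 in NC and 6173 to 6268 after miR-4711-5p. The markers did not move alike. With miR-4711-5p, KRT17 was at 0.540 times parent, KRT19 at 0.553, MUC1 at 0.497 and CDH1 at 0.256. KRT7 was at 0.938 times parent, KRT8 at 0.940, KRT18 at 1.14 and EPCAM at 1.08. Of 10 neutrophil markers, 7 were at 0 in all libraries (CSF3R, FCGR3B, MPO, ELANE, FPR1, MNDA and CEACAM8), and no value exceeded 0.303 FPKM. Among 8 leukocyte and macrophage markers, TYROBP was at 0 and only CD68 and CD14 had a mean of at least 1 FPKM, with sums of 15.4 to 16.7 in parent, 16.2 to 17.1 in NC and 13.2 to 14.3 after miR-4711-5p. Of 7 fibroblast markers, only COL1A1 had a mean of at least 1 FPKM, and the sums were 1.92 to 2.59, 2.71 to 3.02 and 2.46 to 2.79 FPKM in the same order of groups. Of 5 endothelial markers, only CDH5 had such a mean, and the sums were 1.37 to 1.5 in parent, 3.27 to 3.6 in NC and 0.673 to 0.775 after miR-4711-5p. The part of these marker differences in the chemokine differences was not tested.

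The transfected miRNA is shown first because its seed decides which transcripts it can pair with. The mature sequence is from RefSeq, and capitals mark the seed, bases 2 to 8.
miR-4711-5p: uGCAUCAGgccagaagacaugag

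A search of the canonical 3′ UTR of each chemokine gene for the sites of this seed (CTGATGC, which pairs with bases 2 to 8, or TGATGCA, which pairs with bases 2 to 7 before an A) found a site in 0 of 7 genes. Among 19063 coding genes, 15.8% held at least 1. The absence of a match says only that these letters are not in those 3′ UTRs.

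The promoters are shown because 6 of the 7 share a kappaB-type motif at nearly the same distance from the RefSeq start site. Each line gives the 100 bases before the RefSeq start site, 5′ to 3′ on the strand of the gene, and capitals mark GGAATTTCC. The RefSeq windows, given for GRCh38.p14, were each found at a single place in GRCh37 (hg19, the build of the files), whose coordinates are used. These are chr4:74735010-74735109 on the plus strand for CXCL1, chr4:74964913-74965012 on the minus strand for CXCL2, chr4:74904407-74904506 (minus) for CXCL3, chr4:74864395-74864494 (minus) for CXCL5, chr4:74702295-74702394 (plus) for CXCL6, chr4:74606186-74606285 (plus) for CXCL8 and chr2:228678458-228678557 (plus) for CCL20.
CXCL1: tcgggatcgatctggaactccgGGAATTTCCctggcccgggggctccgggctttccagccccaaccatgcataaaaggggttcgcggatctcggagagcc
CXCL2: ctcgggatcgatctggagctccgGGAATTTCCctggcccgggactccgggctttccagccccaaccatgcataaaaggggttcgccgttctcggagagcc
CXCL3: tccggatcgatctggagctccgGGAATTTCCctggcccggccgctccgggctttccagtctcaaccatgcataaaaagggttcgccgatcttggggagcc
CXCL5: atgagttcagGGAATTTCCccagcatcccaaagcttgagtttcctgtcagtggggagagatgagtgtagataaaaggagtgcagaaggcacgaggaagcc
CXCL6: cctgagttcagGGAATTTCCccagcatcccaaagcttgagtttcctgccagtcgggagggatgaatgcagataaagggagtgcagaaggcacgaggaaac
CXCL8: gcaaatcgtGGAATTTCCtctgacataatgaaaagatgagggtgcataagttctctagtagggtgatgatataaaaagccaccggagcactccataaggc
CCL20: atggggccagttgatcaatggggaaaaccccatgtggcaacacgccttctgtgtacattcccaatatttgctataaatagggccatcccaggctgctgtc

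The first base of GGAATTTCC lay 78 bases before the RefSeq start site in CXCL1 and CXCL3, 77 in CXCL2, 90 in CXCL5, 89 in CXCL6 and 91 in CXCL8. Both strands were searched over 250 bases before to 50 bases after the start site. CCL20 held no match to this motif or to its wider form GGANNTTCC, of which GGAATTTCC is a part. Other forms of the kappaB motif were not searched, so a kappaB site of another form in CCL20 would have been missed. Among 35116 RefSeq promoters of the same length, 0.461% held GGAATTTCC and 4.56% held GGANNTTCC. TATAAA was found in CXCL8 and CCL20 only, against 11.5% of all promoters, and the AP-1 motif TGANTCA in CXCL8 only, against 7.71%. CXCL6 held GGAATTTCC and was listed at 0. CCL20, in which this form was not found, was higher in the NC and miR-4711-5p libraries than in parent. Whether the motif bears on any of these levels was not tested.

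Across whole promoter windows, CXCL1 and CXCL3 shared 82.5% of bases, CXCL2 and CXCL3 73.7%, and CXCL5 and CXCL6 83.1%. Motif matches in such related promoters are not independent, so nothing is read from their count beside the share of all promoters. CXCL8 shared 43.0% to 47.4% with the other 6. In the 3′ UTR, the AU-rich pentamer ATTTA occurred in all 7 genes, 10 times in CXCL2, 11 in CXCL5, 9 in CXCL8, 7 in CXCL3, 6 in CXCL1, 6 in CXCL6 and 3 in CCL20. It occurred in 67.9% of all coding genes, and its median density was 7.19 per kilobase in the chemokine genes and 1.53 in all genes. The longer element TTATTTATT, which contains ATTTA, was found 5 times in CXCL2, 3 times in CXCL1 and once each in CXCL3 and CXCL8, and 8.48% of all genes held it.

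CXCL1, known first as a melanoma growth factor and then as a neutrophil attractant, had the highest mean of the 7 in parent cells and with miR-4711-5p. Its level was 7.96 and 8.83 FPKM in parent, 12.3 and 14.2 in NC, and 89.3 and 99.4 after miR-4711-5p. The 3 groups did not overlap, and the lowest miR-4711-5p library stood far above the highest NC library. The means were 8.39 ± 0.615, 13.3 ± 1.33 and 94.4 ± 7.13 FPKM (SD, n = 2 each), that is 11.2 times parent and 7.11 times NC.

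CXCL8, or interleukin-8, is the ligand from which human neutrophil chemotaxis is best known. Its level was 5.24 and 8.75 FPKM in parent, 15.3 and 16.4 in NC, and 60.3 and 67.9 after miR-4711-5p. Again no groups overlapped, but the parent libraries differed from each other by more, relative to their level, than those of either other group. The means were 6.99 ± 2.48, 15.9 ± 0.733 and 64.1 ± 5.33 FPKM, or 9.17 times parent and 4.04 times NC. NC was 2.27 times parent for CXCL8, against 1.58 times for CXCL1.

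CXCL2 and CXCL3 encode close relatives of CXCL1. CXCL2 was at 2.40 and 3.58 FPKM in parent, 5.20 and 4.76 in NC, and 17.8 and 15.7 after miR-4711-5p. CXCL3 was at 1.64 and 1.74 FPKM in parent, 2.10 and 1.84 in NC, and 13.1 and 13.7 after miR-4711-5p. In both genes the groups did not overlap, but for CXCL3 the nearest parent and NC libraries were 1.74 and 1.84 FPKM, almost touching. CXCL2 was 5.60 times parent and 3.36 times NC, from means of 2.99 ± 0.830, 4.98 ± 0.308 and 16.7 ± 1.43 FPKM. CXCL3 was 7.93 times parent and 6.79 times NC, from means of 1.69 ± 0.0662, 1.97 ± 0.185 and 13.4 ± 0.438 FPKM. CXCL3 thus lay nearly as far from NC as from parent, with NC at 1.17 times parent, whereas NC was 1.67 times parent for CXCL2.

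CXCL5 and CXCL6 are a second pair of close relatives, made by many epithelia. CXCL5 was at 0.920 and 0.903 FPKM in parent, 1.16 and 1.26 in NC, and 4.91 and 5.73 after miR-4711-5p. It was the lowest of the 6 genes detected in each group, and its groups did not overlap. The means were 0.912 ± 0.0121, 1.21 ± 0.0721 and 5.32 ± 0.578 FPKM, or 5.84 times parent and 4.41 times NC. CXCL6 was listed at 0 in all 6 libraries, for which no fold change is given.

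CCL20, the member that differs from the others in its receptor, was at 1.03 and 1.08 FPKM in parent, 2.63 and 2.30 in NC, and 5.95 and 8.66 after miR-4711-5p. The groups did not overlap, and the miR-4711-5p libraries were the least alike of all the chemokine genes at that treatment. The means were 1.05 ± 0.0299, 2.47 ± 0.234 and 7.30 ± 1.92 FPKM, or 6.93 times parent and 2.96 times NC. NC was 2.34 times parent, the highest such ratio of the 6 detected genes.

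In 6 of the 6 detected genes both miR-4711-5p libraries lay above all 4 control libraries, and in 6 of 6 both NC libraries lay above both parent libraries. Among the 12040 genes with a mean of 1 FPKM or more, 23.8% separated in the first way, 31.3% in the second and 8.46% in both. Because the genes were chosen on these values, nothing is read from this count either.

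**Figure D1:**
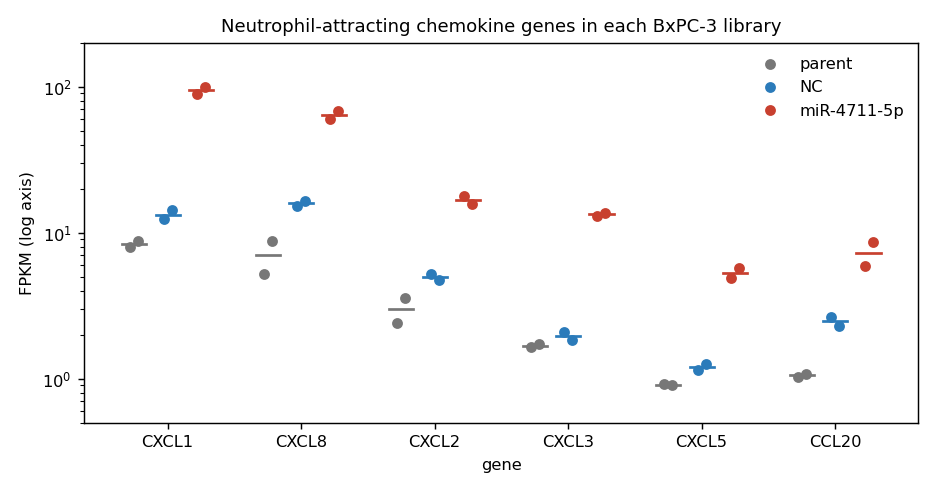
FPKM of the 6 detected chemokine genes in each library on a log axis, with points for libraries and a line at the mean of each group of 2. In every gene the miR-4711-5p points lie above all 4 control points and both NC points lie above both parent points, with the widest gap from NC in CXCL1 (7.11-fold).

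Summed over the 7 genes, the level was 19.2 and 24.9 FPKM in parent, 38.8 and 40.8 in NC, and 191 and 211 after miR-4711-5p. The groups did not overlap in this sum either. The mean sum was 22.0 ± 4.01 FPKM in parent, 39.8 ± 1.41 in NC and 201 ± 14.0 after miR-4711-5p, which is 9.13 times parent and 5.06 times NC, and NC was 1.81 times parent. CXCL1 and CXCL8 made up most of the sum in every library. CXCL1 accounted for 41.5% and 35.5% of it in parent, 31.8% and 34.9% in NC, and 46.7% and 47.1% with miR-4711-5p. CXCL8 accounted for 27.3% and 35.2%, 39.6% and 40.2%, and 31.5% and 32.1%, respectively.

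The order of the levels was not the same in the 3 groups. In parent it ran CXCL1, CXCL8, CXCL2, CXCL3, CCL20, CXCL5. The ranges of CXCL1 and CXCL8 over the parent libraries overlapped, although CXCL1 was above CXCL8 within each library. In NC, CXCL8 came before CXCL1 and CCL20 before CXCL3, and no neighbours overlapped. With miR-4711-5p, CXCL1 came first again, followed by CXCL8, CXCL2, CXCL3, CCL20 and CXCL5, with no overlap between neighbours. The ratio of CXCL8 to CXCL1 was 0.658 and 0.991 in parent, 1.24 and 1.15 in NC, and 0.675 and 0.683 after miR-4711-5p. NC libraries were thus the only ones in which CXCL8 exceeded CXCL1, and the miR-4711-5p ratios lay within the range of the parent libraries.

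The comparison of miR-4711-5p with parent includes the change that came with NC, and all 3 comparisons share libraries. On the log2(FPKM + 1) scale, which understates differences of low genes, CXCL1 differed by 3.34 from parent, of which 0.60 (18.0%) was present in NC and 2.74 separated miR-4711-5p from NC. CXCL8 differed by 3.06, with 1.11 (36.3%) present in NC and 1.95 beyond it. CCL20 differed by 2.0, with 0.75 (37.8%) in NC and 1.24 beyond it. At the other end, CXCL3 differed by 2.42 with 0.14 (5.93%) in NC, and CXCL5 by 1.72 with 0.21 (12%) in NC. CXCL2 lay between them at 2.17, of which 0.60 (27.7%) was in NC. Single libraries moved some of the differences between NC and parent. That of CXCL2 was 0.39 without parent replicate 1 and 0.81 without parent replicate 2, and that of CXCL3 was 0.08 without NC replicate 1 and 0.21 without NC replicate 2. That of CXCL8 was 0.79 without parent replicate 1 and 1.43 without parent replicate 2. A pseudocount of 0.1 in place of 1 moved the NC against parent difference of CCL20 to 1.15 and that of CXCL5 to 0.37.

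**Figure D2:**
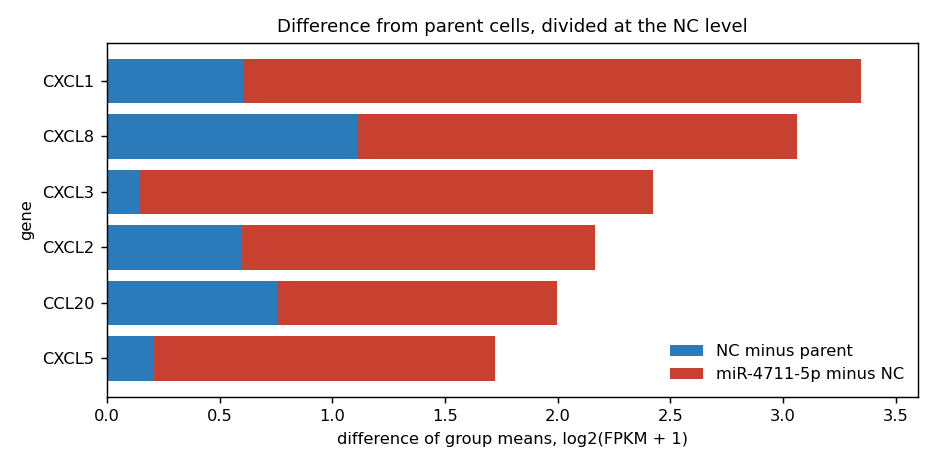
Bars give the difference of group means from parent on the log2(FPKM + 1) scale for each detected chemokine gene, divided where the NC mean lies. The NC section is longest for CXCL8 (1.11) and shortest for CXCL3 (0.14).

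With limma and Benjamini-Hochberg adjustment over 12040 genes, 6 of the 6 chemokine genes tested were called higher in miR-4711-5p cells than in parent. This stands beside 43.4% of all genes called in either direction, 18.7% of them higher and 24.7% lower. Against NC, 6 of 6 were called higher, beside 39.6% of all genes called, 18.4% higher and 21.2% lower. NC against parent gave 4 of 6, CXCL1, CXCL2, CXCL8 and CCL20, beside 27.2% of all genes called, 12.1% higher and 15.1% lower. Since the genes were chosen on these contrasts, nothing is read from those counts. The count of 4 became 2 without parent replicate 1, 2 without NC replicate 1, and 2 when no filter on low values was used, while the share of all genes called fell from 27.2% to 11.3%, 13.2% and 11.3%.

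The median log2 difference of the 6 genes was 2.29 against parent, 1.76 against NC and 0.60 for NC against parent, where the medians of all genes were -0.01, 0.00379 and -0.01. Among 12040 genes ordered by increase against parent, CXCL1 was at place 7, CXCL8 at 10, CXCL3 at 22, CXCL2 at 34, CCL20 at 43 and CXCL5 at 58. Against NC, CXCL1 was at place 9, CXCL3 at 20, CXCL8 at 34, CXCL2 at 46, CXCL5 at 52 and CCL20 at 91. For NC against parent the places were more spread, from 48 for CXCL8 and 117 for CCL20 through 196 for CXCL1 and 200 for CXCL2 to 2039 for CXCL5 and 2932 for CXCL3. The genes were chosen on such increases, so nothing is read from their medians or places. The places also rest on the pseudocount of 1. With 0.1 the difference of CXCL5 from parent was 2.42 in place of 1.72. Setting library totals equal moved the median of all genes against parent from -0.01 to 0.11. The same step changed the calls from 2255 higher and 2975 lower to 4010 and 1776 against parent, from 2214 and 2549 to 2923 and 2083 against NC, and from 1456 and 1823 to 2327 and 1000 for NC against parent.

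Some of these genes are so alike that reads can fit more than 1 of them. The coding sequences of CXCL1 and CXCL2 were identical at 93.5% of bases, those of CXCL2 and CXCL3 at 94.4%, of CXCL1 and CXCL3 at 90.7%, and of CXCL5 and CXCL6 at 87.5%. Of all 75-base stretches of the canonical transcript, the length of the reads, 20.3% in CXCL1, 28.3% in CXCL2 and 7.29% in CXCL3 came within 2 mismatches of another of these genes. The same share was 0 in CXCL5, CXCL6, CXCL8 and CCL20. Stretches that occurred without any mismatch in another gene made up 0.273% in CXCL1, 2.50% in CXCL2 and 2.30% in CXCL3, and 0.127% in CXCL5, shared with GLYR1. How the authors' processing divided reads between such genes is not given in the sources used here, so the levels of CXCL1, CXCL2 and CXCL3 relative to each other are less certain than those of the other members.

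The 6 CXC members lie in a cluster on chromosome 4, between 74606236 and 74964913 in GRCh37, a span of 359 kb. By GENCODE annotation CXCL8 lies at chr4:74606236-74609433, CXCL6 at chr4:74702357-74714781 and CXCL1 at chr4:74735110-74737025, all on the plus strand. CXCL5 at chr4:74861359-74864394, CXCL3 at chr4:74902306-74904524 and CXCL2 at chr4:74962757-74964913 are on the minus strand. CCL20 lies apart at chr2:228670455-228682280 on the plus strand. For CXCL2, CXCL3, CXCL6, CXCL8 and CCL20, the GENCODE start lies before the RefSeq start site used for the promoters. The promoter stretches shown above for CXCL3 and CCL20 therefore lie wholly inside the genes as placed here. Each canonical transcript of the 7 genes has 4 exons.

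PF4 and PF4V1, platelet chemokine genes inside the cluster, were listed at 0 in all libraries, and PPBP, another gene of this type, did not exceed 0.303 FPKM. The neighbour AREGB was not found under that symbol, and stretches that it may share with AREG were not examined. Of 16 listed neighbouring genes, 15 were found and 5 were tested. Against parent 2 were called higher and none lower, with a median log2 difference of 0.08. Against NC 2 were called lower and none higher (median -0.22), and for NC against parent 3 were called higher (median 0.41). Calls in either direction made up 43.4%, 39.6% and 27.2% of all genes in these comparisons, and 2 of 5 is close to the first 2 shares. The count against NC was 1 without NC replicate 1 and 1 without miR-4711-5p replicate 2, with 29.4% and 24.8% of all genes called. Without the filter on low values, 11 neighbours were tested and the calls against NC were 2 higher and 1 lower, so that their direction rests on the filter. EPGN, the gene of the growth factor epigen, did not pass it, with 0.289 and 0.298 FPKM in parent, 0.376 and 0.300 in NC, and 0.862 and 0.936 after miR-4711-5p, or 2.66 times NC.

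EREG, which encodes the growth factor epiregulin on the far side of the cluster, was at 14.4 and 15.2 FPKM in parent, 29.3 and 30.2 in NC, and 26.7 and 24.2 after miR-4711-5p. It rose by 0.96 in NC (limma adjusted p = 0.00039) and was 0.22 lower after miR-4711-5p than in NC by the fit to all libraries (adjusted p = 0.0288). That last call was lost with equal library totals (0.0871) and without NC replicate 1 (0.0778), NC replicate 2 (0.122) or miR-4711-5p replicate 2 (0.172). Against parent, EREG was 1.72 times as high with miR-4711-5p, a log2 difference of 0.74 (adjusted p = 0.000134). AREG, encoding the related growth factor amphiregulin, was at 5.77 and 6.02 in parent, 9.91 and 7.51 in NC, and 4.53 and 4.68 after miR-4711-5p, the lowest group. AREG fell by 0.78 from NC to miR-4711-5p (adjusted p = 0.00184). Between NC and parent it differed by 0.48 (limma adjusted p = 0.0217), a call lost when any library other than NC replicate 2 was left out. The difference itself fell to 0.30 without NC replicate 1. It was 0.46 and 0.51 without parent replicates 1 and 2, and 0.48 without either miR-4711-5p library.

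**Figure D3:**
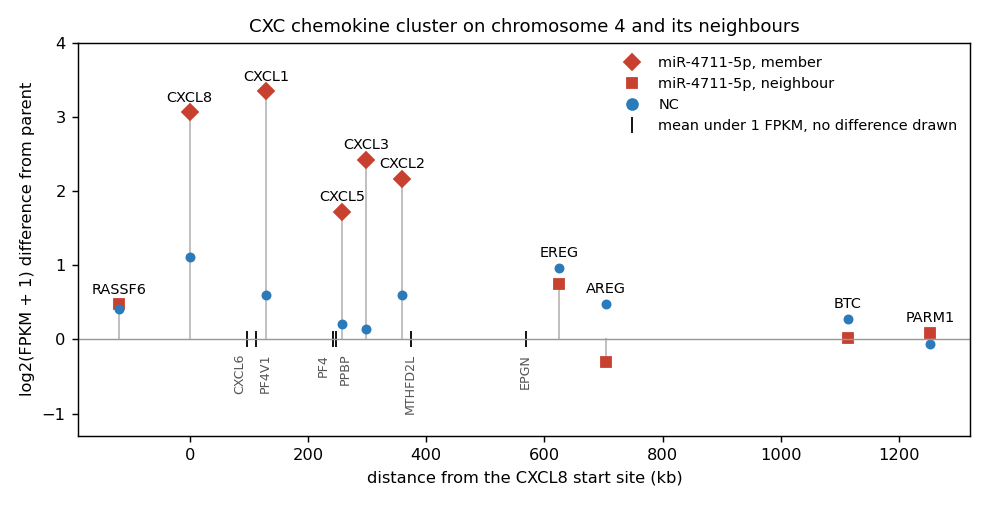
Difference from parent, log2(FPKM + 1), against distance from the CXCL8 start site in kb, with diamonds for chemokine genes and squares for neighbours with miR-4711-5p, and circles for NC. The 5 detected CXC members stand between 1.72 and 3.34 after miR-4711-5p, while EREG, AREG and BTC have their NC circle above the square, and black ticks mark genes with a mean under 1 FPKM.

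None of the receptors of these chemokines reached a level that could be tested. CXCR2 had 0.0202 to 0.0855 FPKM over the 6 libraries, CXCR1 was at 0 in 5 libraries and at 0.0218 in miR-4711-5p replicate 2, and CCR6 did not exceed 0.0371. The scavenging receptor ACKR1 was at 0 in all 6, and ACKR2 lay between 0.0218 and 0.0763 FPKM. The 6 detected ligands were thus measured at levels from 0.903 to 99.4 FPKM in cells in which no receptor on the list exceeded 0.0855.

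Of 41 other human chemokine genes, 33 had a mean under 1 FPKM, 18 of them listed at 0 in all libraries, and 8 were tested. Against parent 5 rose and none fell, with a median log2 difference of 0.52. Against NC 6 rose and none fell (0.60), and for NC against parent 2 rose and none fell (0.04). The shares of all genes that rose were 18.7%, 18.4% and 12.1%, and 27.2% were called in either direction for NC against parent. Without the filter on low values, 23 of these genes were tested, with 8 calls against parent, 7 of them higher, and 10 against NC, 8 of them higher, where 24.3% and 21.9% of all genes were called.

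CXCL10, a ligand of CXCR3 that attracts T cells, was at 9.96 and 10.3 FPKM in parent, 22.3 and 21.9 in NC, and 74.0 and 62.2 after miR-4711-5p. It was 6.72 times parent and 3.08 times NC (log2 differences 2.63 ± 0.08 and 1.58 ± 0.08, SE, limma adjusted p = 3.3e-06 and 1.69e-05). CXCL11, a second CXCR3 ligand, had 16.1 and 16.1 FPKM in parent, 26.8 and 26.0 in NC, and 43.4 and 37.1 after miR-4711-5p (adjusted p = 2.58e-05 against parent and 0.000958 against NC). Both were higher in NC than in parent as well, and in neither did the groups overlap. CCL22, which attracts regulatory T cells, was 3.06 times parent (adjusted p = 0.000844) and 2.83 times NC (0.00121). CCL5, an attractant of T cells and monocytes, was 1.70 times parent (0.00291) and 1.66 times NC (0.00409). CCL28, a mucosal chemokine, was 1.75 times NC (limma adjusted p = 0.0109), a call that was lost without NC replicate 1 or NC replicate 2. It was 1.32 times parent and not called there (adjusted p = 0.115). That log2 difference of 0.30 was 0.51 without miR-4711-5p replicate 2. With equal library totals it was 0.41 and called (adjusted p = 0.0456).

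A list of 24 other genes, mainly for epithelial factors that recruit, increase or activate neutrophils, contained 17 tested genes. IL1RN, whose product is an antagonist and not such a factor, is on this list. It is counted among the genes that fell against parent and against NC. Against parent 12 rose and 2 fell, with a median log2 difference of 0.64. Against NC 7 rose and 6 fell (0.14), and for NC against parent 11 rose and none fell (0.49). Of all genes, 18.7% rose and 24.7% fell against parent, 18.4% and 21.2% against NC, and 12.1% and 15.1% for NC against parent. IL6 encodes a cytokine of the acute phase, and CSF2 the neutrophil survival factor GM-CSF. IL6 was at 0.0612 and 0.280 FPKM in parent, 0.571 and 0.714 in NC, and 6.83 and 7.2 after miR-4711-5p, with log2 differences of 2.78 from parent and 2.29 from NC (limma adjusted p = 1.06e-05 and 2.83e-05). CSF2 was at 0.928 and 1.65 in parent, 1.65 and 1.32 in NC, and 8.72 and 6.75 after miR-4711-5p, with differences of 1.94 and 1.81 (2e-04 and 0.000317). CSF3, the gene of the neutrophil growth factor G-CSF, had a mean just under 1 FPKM and was not tested. It was at 0.283 and 0.162 FPKM in parent, 0.290 and 0.441 in NC, and 2.35 and 2.46 after miR-4711-5p, or 10.8 times parent and 6.59 times NC, and it is named here after its values were seen.

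Genes that fell against NC included IL1RN, which encodes an antagonist of the IL-1 receptor, at 0.474 times NC (adjusted p = 1.02e-05), and IL33, an alarmin gene, at 0.407 times NC (8.45e-05). IL33 had risen to 2.38 times parent in NC (0.000568), and both genes were picked out after their values were seen. PTGS2, or COX-2, which makes prostaglandins, was at 21.3 and 24.1 FPKM in parent, 18.0 and 20.3 in NC, and 68.9 and 68.0 after miR-4711-5p. It was 3.02 times parent and 3.58 times NC (adjusted p = 1.31e-05 and 9.43e-06). SAA1, an acute-phase protein gene, was 3.08 times parent (0.00308) and 1.94 times NC (0.0207), the latter not called without miR-4711-5p replicate 1 (0.0904) or miR-4711-5p replicate 2 (0.109). LIF, a cytokine of the IL-6 family, was 2.16 times parent (4.95e-05) and 1.67 times NC (0.000362).

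The list of NF-kappaB subunits, IkappaB proteins, kinase subunits and feedback genes had 19 of 20 genes tested. Against parent 13 rose and none fell, with a median log2 difference of 0.29. Against NC 9 rose and 1 fell (0.12), and for NC against parent 10 rose and 1 fell (0.25). The shares of all genes that rose were 18.7%, 18.4% and 12.1%, and the shares that fell 24.7%, 21.2% and 15.1%. With a ratio of at least 1.5 also required, 7 genes were called against parent, 3 against NC and 2 for NC against parent, beside 12.4%, 10.8% and 4.16% of all genes. The count against NC was 6 without miR-4711-5p replicate 1, where 23.4% of all genes were called. The 7 against parent were BIRC3, TRAF1, TNFAIP3, NFKBIZ, NFKBIA and the subunit genes RELB at 1.54 times parent (limma adjusted p = 0.000791) and NFKB2 at 1.53 times (0.000194).

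BIRC3, which encodes an inhibitor of apoptosis, was at 2.30 and 2.46 FPKM in parent, 6.24 and 6.19 in NC, and 7.65 and 8.0 after miR-4711-5p. Most of its difference was therefore already present in NC, with log2 differences of 1.38 from parent and 0.29 from NC (limma adjusted p = 1.34e-05 and 0.0142). The call against NC was lost when any of the 4 libraries compared was left out, with adjusted p between 0.0568 and 0.095. TNFAIP3, or A20, which ends NF-kappaB signalling, was at 22.0 and 22.2 in parent, 31.2 and 31.1 in NC, and 53.8 and 50.7 after miR-4711-5p, and differed by 1.20 and 0.73 (5.88e-06 and 5.42e-05). TRAF1, a signalling adaptor, differed by 1.38 and 0.78 (6.75e-06 and 9.01e-05). NFKBIZ, which encodes the nuclear cofactor IkappaB-zeta, was 2.31 times parent (6.72e-05) and 1.99 times NC (0.000197), and NFKBIA, the gene of the inhibitor IkappaB-alpha, 1.84 and 1.40 times (1.54e-05 and 0.000253).

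The list of receptors and adaptors of cytokines known to induce these chemokines, with Toll-like receptors added, had 16 of 18 genes tested. Of these, 5 rose and 4 fell against parent (median log2 difference 0.09), 3 rose and 6 fell against NC (-0.04), and 3 rose and none fell for NC against parent (0.10). The shares of all genes called were 43.4% (18.7% higher, 24.7% lower), 39.6% (18.4% and 21.2%) and 27.2% (12.1% and 15.1%), respectively. IL1R1, the signalling receptor of IL-1, was at 1.26 and 1.0 FPKM in parent, 1.55 and 2.12 in NC, and 3.07 and 3.08 after miR-4711-5p, or 2.72 times parent and 1.67 times NC (adjusted p = 0.00131 and 0.0164). Its call against NC was lost without NC replicate 1 (0.0666), miR-4711-5p replicate 1 (0.0802) or miR-4711-5p replicate 2 (0.0798). TLR3, a receptor of double-stranded RNA, was 1.76 times parent (0.00645, and 0.0528 without miR-4711-5p replicate 1) and 1.55 times NC (0.0175, and 0.0889, 0.105 and 0.0634 without NC replicate 1, miR-4711-5p replicate 1 and miR-4711-5p replicate 2). TNFRSF1B, a TNF receptor, was highest in NC, at 3.57 and 3.51 FPKM against 1.52 and 1.37 in parent and 2.65 and 2.78 after miR-4711-5p. IL17RE, a subunit of the IL-17C receptor, had log2 differences of -0.45 from parent (0.0123, and 0.0727 without parent replicate 2 and 0.0876 without miR-4711-5p replicate 1) and -0.32 from NC (0.0478, and 0.0517 to 0.228 without any single library). The 9 calls against parent became 5 without miR-4711-5p replicate 1, and the 9 against NC became 4 without NC replicate 1, 4 without miR-4711-5p replicate 1 and 3 without miR-4711-5p replicate 2. The share of all genes called fell to 26.3% in the first of these settings and to 29.4%, 23.4% and 24.8% in the others. The 3 calls for NC against parent became 1 without parent replicate 1, parent replicate 2 or NC replicate 2, with 11.3%, 17.9% and 16.1% of all genes called.

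Of 13 genes for proteins that bind AU-rich or other mRNA elements, or cut chemokine mRNAs, all were tested. They are called mRNA decay genes below, whichever way each acts on decay. Against parent 5 rose and none fell (median log2 difference 0.11), against NC 6 rose and none fell (0.16), and for NC against parent 3 rose and 3 fell (0.10). Over all genes, 43.4% (18.7% higher, 24.7% lower), 39.6% (18.4% and 21.2%) and 27.2% (12.1% and 15.1%) were called in these comparisons. ZC3H12A, whose product regnase-1 cuts cytokine mRNAs, was at 16.8 and 15.1 FPKM in parent, 23.3 and 22.7 in NC, and 35.2 and 35.8 after miR-4711-5p, with differences of 1.11 from parent and 0.60 from NC (adjusted p = 1.92e-05 and 0.000345). Its relative ZC3H12C differed by 0.64 from parent (0.000903) and by 0.02 from NC (0.874). ZFP36L2, which binds AU-rich elements, was at 20.7 and 20.8 in parent, 12.7 and 12.6 in NC, and 21.0 and 19.6 after miR-4711-5p, so that it was lower in NC than in both other groups. The count of 6 against NC was 3 without miR-4711-5p replicate 1, with 23.4% of all genes called.

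**Figure D4:**
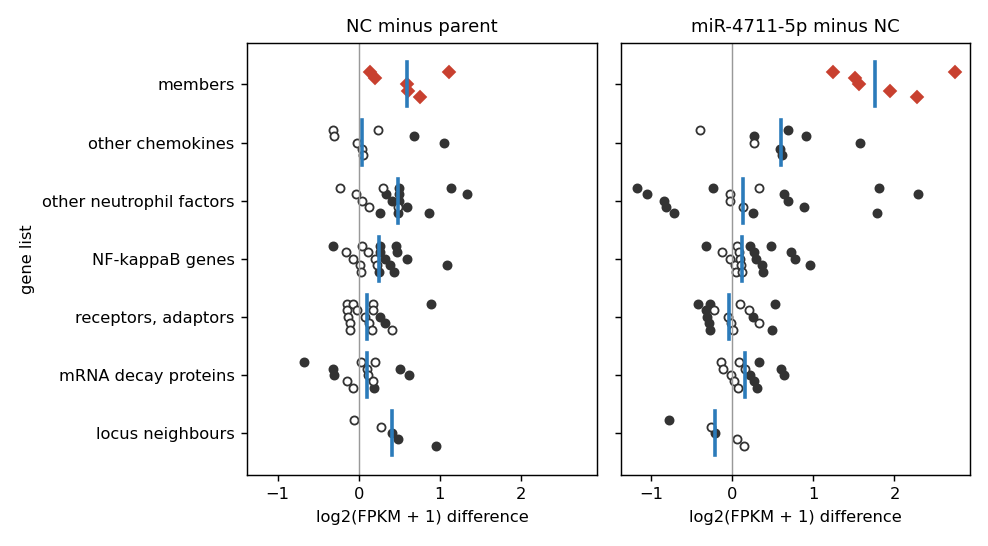
Points are tested genes of each list, with the log2(FPKM + 1) difference of NC from parent on the left and of miR-4711-5p from NC on the right. Circles are filled where limma called the gene and open where not. Diamonds are the chemokine genes chosen on these values and are filled whether called or not. On the left 4 of these were called and 2 were not. Blue lines are at list medians. On the right the chemokine median is 1.76, and the medians of the other lists, cell type markers not included, lie between -0.22 and 0.60.

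The genes with the profile most like the chemokine mean were found by the Euclidean distance, over 6 libraries, between log2(FPKM + 1) minus the parent mean of each of 12034 other genes and the same averaged over the 6 detected members. The mean profile stood at 0.57 in NC and 2.45 after miR-4711-5p. The nearest genes were RRAD at a distance of 0.454, IL6 at 0.493, SAMD9L at 0.531, XAF1 at 0.550 and CMPK2 at 0.564. RRAD was at 0.523 and 0.707 FPKM in parent, 1.01 and 1.28 in NC, and 6.80 and 6.26 after miR-4711-5p. XAF1 was at 12 and 11.8 in parent, 16.9 and 17.5 in NC, and 56.7 and 52.7 after miR-4711-5p. The members themselves lay between 0.491 (CXCL2) and 1.27 (CXCL1) from their own mean, so only CXCL2 was nearer to it than SAMD9L, and CXCL1, CXCL8 and CXCL5 at 1.27, 1.19 and 1.16 were the farthest.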

How the data were processed

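RNA was sequenced from 6 BxPC-3 libraries in 75-base single-end mode. The authors mapped the reads to hg19 and deposited FPKM per gene symbol, calculated with Cuffnorm according to the methods of the paper, which are normalized for gene length and library size. The submitters' processing notes name TopHat2 2.1.1, Bowtie2 2.3.5.1, SAMtools 1.2, Cufflinks 2.2.1 and Cuffdiff. The methods of the paper give other versions of the first 3 and name Cuffnorm, not Cuffdiff, for the FPKM. The annotation, the strand option and the handling of multiply mapped reads are not given in the sources used here.

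Because FPKM are not counts, count models were avoided. The 12040 genes that averaged 1 FPKM or more were compared on log2(FPKM + 1) with limma 3.58.1 in R 4.3.3 (lmFit, contrasts.fit, and eBayes with trend), in a single fit of 3 groups with 3 residual and 4.15 prior degrees of freedom. Each test was two-sided with Benjamini-Hochberg adjustment at 0.05, and the fitting step was tested on simulated data. An exact permutation test of 2 against 2 libraries cannot go below p = 0.333. Ratios are of mean FPKM without a pseudocount. The members and all gene lists were chosen with earlier results of these data known. From each list the text names at most 5 genes that were called in a comparison with a ratio of at least 1.5, taken by the size of their difference from parent, and KLF5 and the 5 genes of most similar profile. IL1RN, IL33, CSF3, EPGN, RELB and NFKB2 fall outside this rule and were named after their values were seen. Relative depth came from the steps between low FPKM values. Sequences were read from RefSeq tables, and transcripts and positions from GENCODE v44 lifted to GRCh37, with Biopython 1.88. Figures were drawn with matplotlib 3.10.9. The alternatives were other pseudocounts, filters and scalings, a fit without trend, a fit of the groups compared only, an added ratio, a replicate block and leaving out each library.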

Additional observations from a re-analysis of the deposited data

How the results depend on the processing

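Under another pseudocount or scaling, 21 of 72 log2 differences of single chemokine genes moved by more than the spread between replicates. Leaving out a library moved CXCL2 for NC against parent between 0.39 and 0.81, and CXCL8 between 0.79 and 1.43. Of 210 alternatives for counts of calls, 190 stayed within 1.5 times and 20 did not, and of 126 that left out a library, 113 and 13.

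A required ratio of at least 1.5 lowered the calls against parent to 7 for NF-kappaB genes, 4 for receptors and adaptors, 2 for mRNA decay genes and 1 for locus neighbours, against NC to 3, 2, 2 and 1, and for NC against parent to 2, 1, 2 and 1, with 5 for other neutrophil factors, while the share of all genes called fell to 12.4%, 10.8% and 4.16%. Without a filter, other chemokines had 8 calls of 23 tested against parent and 10 of 23 against NC, and the members 2 for NC against parent, with 24.3%, 21.9% and 11.3% of all genes called. With a mean of at least 5 FPKM, which left 10 receptors and adaptors to test, these had 5 calls against parent and 1 for NC against parent, with 50.4% and 35.4% of all genes called. With equal totals, locus neighbours had 1 call against NC, and receptors and adaptors 5 for NC against parent. The cause of the changes with equal totals was not tested.

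Leaving out each library in turn gave calls against parent 5 to 10 for receptors and adaptors, against NC 1 to 2 for locus neighbours, 6 to 10 for NF-kappaB genes, 3 to 9 for receptors and adaptors and 3 to 6 for mRNA decay genes, and for NC against parent 2 to 4 for members and 1 to 2 for receptors and adaptors.

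With the replicate number as a block, limma called 4983, 4564 and 2864 genes in the 3 comparisons, against 5230, 4763 and 3279 without it. Deviations of libraries with the same number correlated across genes at 0.0610, 0.00301 and -0.00892, so the numbers were not taken as pairs. The chemokine counts of 6, 6 and 4 were the same with the block. Over all genes, NC against parent gave 2165 calls without a filter and 1355 to 2296 when a library was left out, miR-4711-5p against parent 3164 to 5135 and miR-4711-5p against NC 2815 to 4639. With 2 libraries a group, a group left with 1 library was assumed to vary like the others. Read numbers are not known, so the depth behind each value, and whether CXCL6 was below detection, cannot be given.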
